A study of Mus musculus with 8 samples.

Results

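Neuropeptide and hormone receptors were read in RNA from the ventral tegmental area (VTA) of juvenile mice that had or had not been exposed to early life social stress. The group comprises 37 genes, named by symbol and found in the count table by that symbol: 32 receptors with several membrane-spanning segments that couple to G proteins, 3 receptor activity-modifying proteins (RAMPs) that partner them, and 2 single-pass receptors, those of leptin and insulin. Opioid, tachykinin and corticotropin-releasing hormone receptors are not among them. The count table holds 54735 genes, and 35 of the 37 had enough counts to be compared between groups.

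Neuropeptides are cut from larger precursors, released from dense-core vesicles and act over some distance on G protein-coupled receptors. Receptors that couple to Gq raise intracellular calcium through phospholipase C, those that couple to Gi lower cyclic AMP and often open potassium channels, and those that couple to Gs raise cyclic AMP. In the VTA, neurotensin, orexin, cholecystokinin, ghrelin, leptin, insulin, oxytocin and melanocortin signals are known to act on dopamine neurons or their inputs, and peptides reach the region from the hypothalamus, the brainstem and local neurons.

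All mice were of the strain DBA2/J. SS mice had spent 30 min per day from postnatal day 14 to 21 with an unfamiliar adult CD1 male that had been gonadectomized, and CTR mice came from litters left unhandled. The labels give an age of P21 and the sex as male for all, and the study's methods place tissue collection on postnatal day 22. Bilateral punches of 0.5 mm gave 1 library per mouse; the series' design text counts 5 mice per group and the study itself 4, the number of CTR and of SS libraries here, named by their replicate numbers (CTR-1, SS-2). Single libraries are given throughout by rising replicate number, 1, 2, 3 and 5 for CTR and 2, 3, 4 and 5 for SS. Totals over all genes were 20036086, 25399538, 23512478 and 39569142 counts (CTR) and 41509698, 47319997, 26024301 and 25248618 counts (SS). CPM stands for counts per M of the library's total, with totals rescaled by TMM, which assumes that most genes do not differ. At these depths 3 counts, taken as an approximate upper limit for a count of 0, correspond to between 0.0622 CPM in SS-3 and 0.155 CPM in CTR-1. This limit covers counting error only.

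In the libraries labelled CTR-5 and SS-5 the sex transcripts went against the label. Xist, the RNA of the inactive X chromosome, had 14997 counts in CTR-5 and 6551 in SS-5, and at most 3 in each of the other 6 libraries. Uty, Kdm5d, Ddx3y and Eif2s3y on the Y chromosome together had 3 counts in CTR-5 and 0 in SS-5, and at least 2293 in each of the others. CTR-1 and CTR-2 stood apart in another way. Of the 1991 genes with a mean level of 1 to 3 CPM, 434 were absent from CTR-1 and 355 from CTR-2, and no other library lacked more than 94. Among the 37 receptor genes, those without a count numbered 7, 5, 2 and 0 (CTR) and 1, 0, 0 and 1 (SS).

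The tissue label was checked against 15 dopamine neuron markers, all of which were detected. Their summed level was 2990, 1778, 1435 and 2600 CPM (CTR) and 678, 625, 619 and 622 CPM (SS). The groups did not overlap, SS being lower. The nearly equal SS sums hide opposite differences in SS-5, which had 148 CPM of Dlk1, the most abundant marker, where the other SS libraries had 275 to 301, and 46.6 CPM of Slc18a2, where they had 15.9 to 17.2. By edgeR's quasi-likelihood test with Benjamini-Hochberg adjustment over all tested genes, 7 of the 15 fell in SS with an adjusted p under 0.05 and none rose. Dlk1 was not among the 7. Pitx3, a defining transcription factor, had no count in SS-3 and SS-4, while Nr4a2, Lmx1a and Lmx1b, which also specify these neurons, were at log2 fold changes of 0.16, 0.13 and -0.13, SS relative to CTR. Fewer cells of a type and less RNA per cell cannot be told apart in tissue punches, and this holds for every receptor. For dopamine neurons the study reports similar numbers of cells stained for tyrosine hydroxylase in the VTA of CTR and SS mice. These were counted in sections of other mice, so they do not give the number of such cells in a punch.

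**Figure D1:**
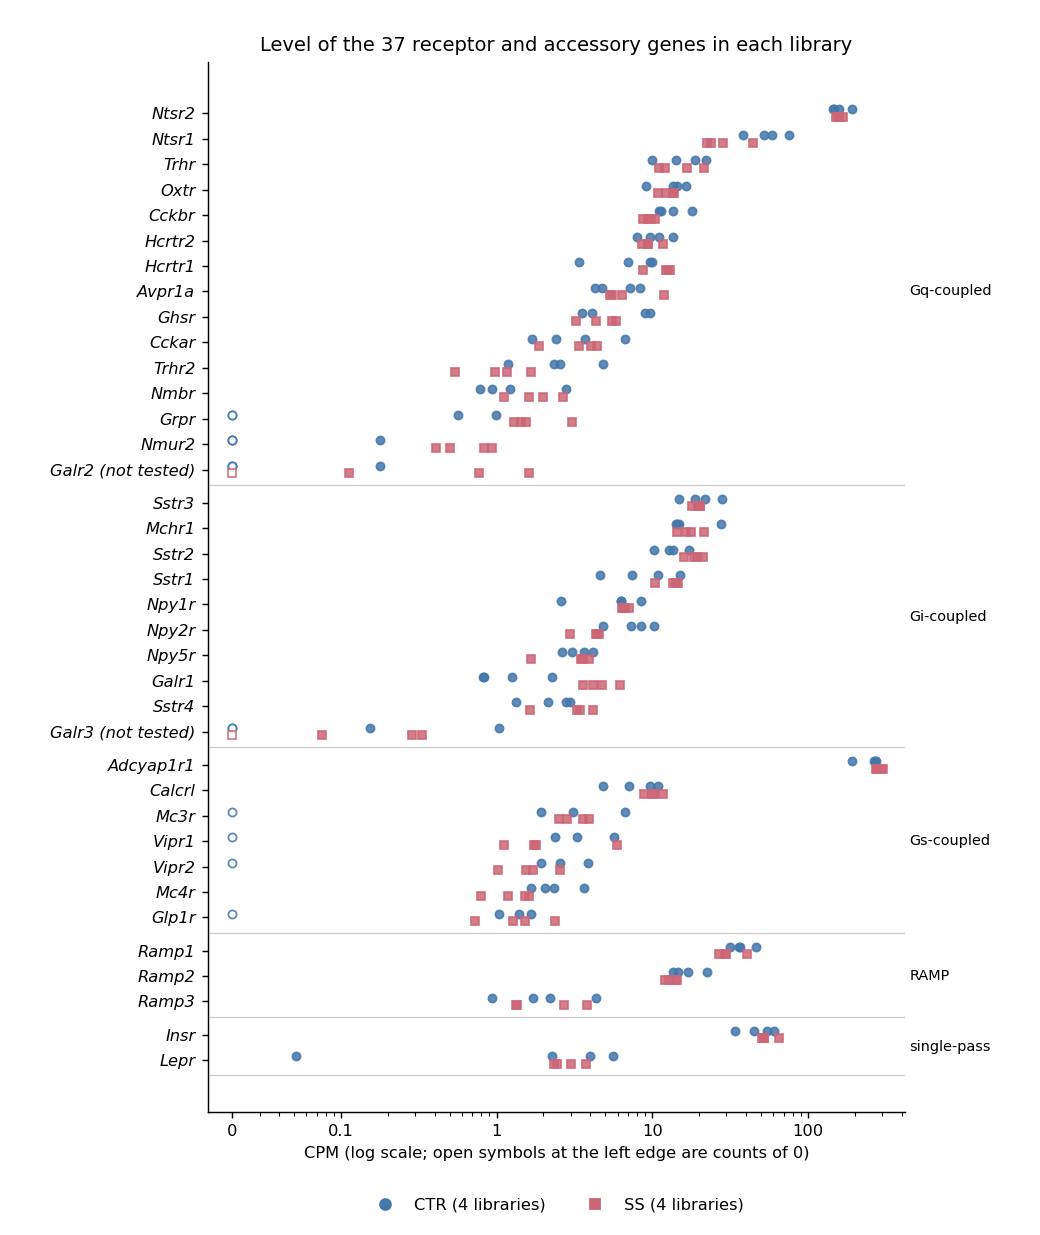
Level of each of the 37 genes in each library, as CPM on a log axis, with CTR libraries as circles and SS libraries as squares and the genes grouped by the signal they couple to. Open symbols at the left edge are counts of 0, found in 8 genes and mostly in CTR-1 or CTR-2, and Ntsr2 and Adcyap1r1 lie above 100 CPM in all 8 libraries.

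To compare levels between genes, CPM was divided by the exon length in kb. On this scale the neurotensin receptor Ntsr2, known for its expression in glia, was the highest of the 37 at 51.3 CPM per kb (mean of 8 libraries), followed by the PACAP receptor Adcyap1r1 at 40.8, Ramp1 at 11.5, the neurotensin receptor Ntsr1 at 11.0 and the melanin-concentrating hormone receptor Mchr1 at 8.06 CPM per kb. The place of Ntsr1 differs between the groups, at 14.4 CPM per kb in CTR, above Ramp1 at 12.5, and at 7.62 CPM per kb in SS, below Ramp1 (10.5), Sstr2 (8.74) and Mchr1 (8.02). Over all libraries the somatostatin receptors Sstr2, Sstr1 and Sstr3 came next at 7.52, 5.56 and 4.68 CPM per kb. The lowest level was that of the neuromedin receptor Nmur2 at 0.108 CPM per kb. Of the 36 pairs of neighbours in this order, 34 overlapped in their ranges over the 8 libraries. The exceptions were Ntsr2 over Adcyap1r1, whose lowest and highest libraries were at 46.6 and 46.2 CPM per kb, and Adcyap1r1 over Ramp1, at 28.9 and 15.4 CPM per kb. The summed level of the 37 genes was 736, 749, 770 and 787 CPM (CTR) and 761, 750, 767 and 822 CPM (SS), so that the groups overlapped.

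SS was then compared with CTR. edgeR's quasi-likelihood test called none of the 35 tested members at 0.05 after adjustment, and it called 14 of 16538 genes (0.0847%), all lower in SS. A log2 fold change of 1 is a doubling in SS, SE is its standard error, and the adjusted p (Benjamini-Hochberg) limits the share of false calls over all tested genes. DESeq2 with default options, the tool of the study, called 81 of 19349 genes (0.419%), among them 1 member, Galr1, at an adjusted p of 0.022. At an unadjusted p under 0.05 in edgeR's test, 3 members were higher in SS (Galr1, Sstr2 and Nmur2) and 3 lower (Ntsr1, Npy2r and Cckbr), where 2.85% of all tested genes were higher and 3.7% lower. These shares also apply to the gene lists below. Nmur2 reached the level of the low-count filter in SS libraries alone and so had to differ, so that neither its p nor its lack of overlap is evidence. The SS values lay entirely above the CTR values in Galr1, Grpr and Adcyap1r1, and in Nmur2, which does not count here, and entirely below them in 3 (Npy2r, Cckbr and Mc4r), compared with 2.47% and 2.21% of all tested genes. Across the 35, 16 were higher and 19 lower in SS, and the median log2 fold change was -0.015, beside 0.0037 over all tested genes. By coupling, 5 of 14 tested Gq-coupled receptors, 5 of 9 Gi-coupled ones, 4 of 7 Gs-coupled ones, 1 of 3 RAMPs and 1 of 2 single-pass receptors were higher in SS.

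**Figure D2:**
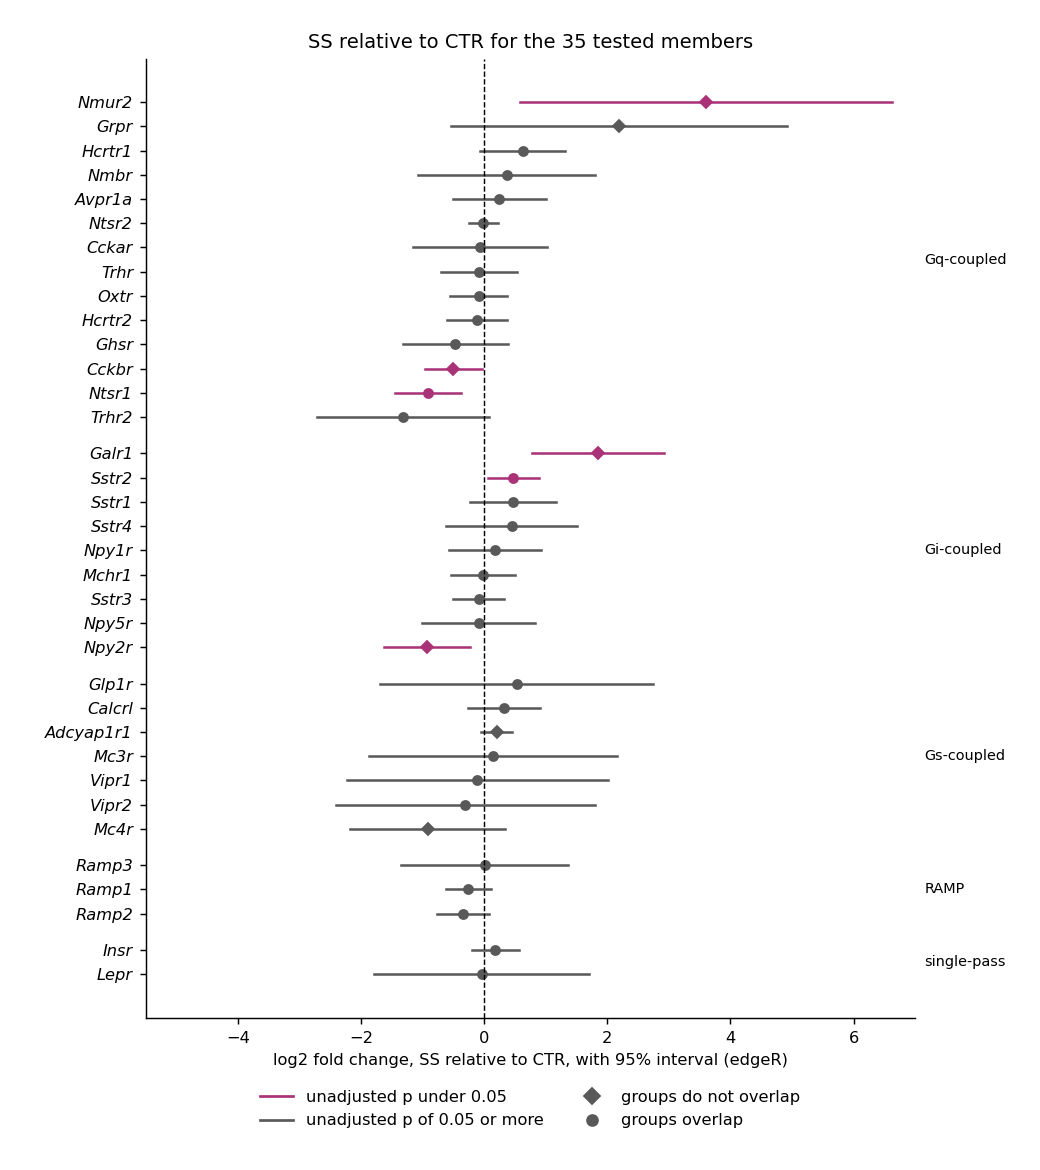
log2 fold change of each of the 35 tested members, SS relative to CTR, with its 95% interval from edgeR's fit. Coloured bars mark an unadjusted p under 0.05 (6 members) and diamonds mark members whose 4 SS and 4 CTR libraries do not overlap (7 members); the interval is widest for members with counts of 0, such as Nmur2 and Grpr.

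Promoters are shown for Ntsr1, Npy2r, Cckbr and Sstr2, 4 of the 6 members at an unadjusted p under 0.05 in edgeR's test, chosen as those best counted. Each is the stretch of 250 bases before the start site in RefSeq (GRCm38.p6), written 5′ to 3′ along the gene. Ntsr1 is at chr2:180499726-180499975 on the plus strand, Npy2r at chr3:82548086-82548335 on the minus strand, Cckbr at chr7:105425481-105425730 on the plus strand and Sstr2 at chr11:113619077-113619326 on the plus strand. Capitals mark matches, on either strand, to 6 motifs, whose share among 32817 RefSeq promoters of this length was 17.7% for TGACG (cyclic AMP element core), 32.7% for GGGCGG (GC box), 12.4% for TATAAA (bound by TBP), 1.34% for AAAGGTCA (bound by NR4A factors), 4.85% for TAATTA (homeodomain core) and 3.16% for TGTTTAC (bound by FOXA factors).
Ntsr1: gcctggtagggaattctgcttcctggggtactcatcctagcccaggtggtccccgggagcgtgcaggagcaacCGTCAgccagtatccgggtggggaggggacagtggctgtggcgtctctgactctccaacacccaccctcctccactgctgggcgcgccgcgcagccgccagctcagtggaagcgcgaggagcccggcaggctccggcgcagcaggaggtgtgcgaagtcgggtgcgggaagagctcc
Npy2r: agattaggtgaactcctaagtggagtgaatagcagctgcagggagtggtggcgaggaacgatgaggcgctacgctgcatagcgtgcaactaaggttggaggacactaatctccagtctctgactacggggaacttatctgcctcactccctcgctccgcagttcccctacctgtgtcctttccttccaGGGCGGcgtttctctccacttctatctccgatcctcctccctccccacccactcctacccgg
Cckbr: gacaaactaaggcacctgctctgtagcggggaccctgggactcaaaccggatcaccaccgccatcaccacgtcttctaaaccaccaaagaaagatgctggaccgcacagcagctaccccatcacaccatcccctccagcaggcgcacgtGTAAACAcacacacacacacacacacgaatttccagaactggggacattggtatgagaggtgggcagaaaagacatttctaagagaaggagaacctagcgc
Sstr2: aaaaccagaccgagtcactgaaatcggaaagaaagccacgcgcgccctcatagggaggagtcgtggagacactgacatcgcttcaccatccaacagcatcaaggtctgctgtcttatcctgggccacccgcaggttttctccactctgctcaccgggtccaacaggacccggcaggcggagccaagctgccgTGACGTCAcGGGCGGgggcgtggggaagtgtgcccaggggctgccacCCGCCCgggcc

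In these windows Ntsr1 held 1 match to TGACG on the reverse strand, beginning 177 bases before the start, Npy2r 1 GC box at 62 bases and Cckbr 1 FOXA match on the reverse strand at 101 bases. Sstr2 held TGACG on both strands, at 58 and 55 bases, which overlap in a palindrome, and 2 GC boxes at 49 and 11 bases. No match to the other 3 motifs was found in any of the 4. The base composition differed, with 68.4% G or C in the Ntsr1 window, 63.6% in Sstr2, 56.8% in Npy2r and 53.6% in Cckbr. A match is a run of letters, factor binding was not measured, and no site or cause is drawn from them. RefSeq promoters were matched by symbol for 28 of the 37 members, the others being Trhr, Trhr2, Ramp2, Cckar, Mc4r, Galr1, Galr3, Sstr1 and Insr.

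Among the Gq-coupled receptors, Ntsr1 had the smallest p. Ntsr1 binds neurotensin with high affinity and is known to be expressed by VTA dopamine neurons (chromosome 2, 180499976 to 180544980, GRCm38). It was at 75.4, 38.1, 52.2 and 59.3 CPM (CTR) and 22.5, 24.0, 28.4 and 44.6 CPM (SS). SS-2, SS-3 and SS-4 lay below every CTR library, and SS-5 lay above CTR-2. Group means ± SD (n = 4) were 56.3 ± 15.5 CPM (CTR) and 29.9 ± 10.1 CPM (SS). On the log2 scale the fold change was -0.92 (SE 0.24, 95% interval -1.45 to -0.38), with an unadjusted p of 0.0029 and an adjusted p of 0.51 in edgeR's quasi-likelihood test, and the exact two-sided permutation test over 70 assignments gave p = 0.057, where 0.029 is the smallest it can give. Without CTR-5 and SS-5, the libraries that went against their sex label, it was -1.15. The adjusted p was 0.065 with DESeq2 and 0.28 with limma voom. CTR-1, the highest library for Ntsr1, also had the highest sum of dopamine neuron markers. The lowest CTR libraries were not the same, being CTR-2 for Ntsr1 and CTR-3 for the marker sum. SS-5, with the most Ntsr1 in SS, also had the most Slc18a2, Chrna6 (13.6 CPM, and 3.95 to 4.88 in the other SS libraries), Th (25.5 CPM, and 14.1 to 15.8), Slc6a3, Pitx3, Foxa1, Nr4a2, Lmx1a, Lmx1b and Aldh1a1. It had the least Dlk1 and Ddc, and was in between for En1, Drd2 and Foxa2. The part of the marker difference in the Ntsr1 difference was not tested.

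Its relative Ntsr2 (chromosome 12, 16653382 to 16660227) was at 192, 146, 158 and 145 CPM (CTR) and at 159, 152, 156 and 169 CPM (SS). The groups overlapped, CTR-1 being the highest library. In log2 units the fold change was -0.012 with a 95% interval of -0.24 to 0.22, the narrowest of the 35 together with its SE of 0.11. The difference between the 2 neurotensin receptors was not tested. The astrocyte markers (9 genes, the most abundant being Slc1a2) were at a summed level of 3113 ± 426 CPM (CTR) and 3106 ± 177 CPM (SS).

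Cckbr, the cholecystokinin receptor that also binds gastrin (chromosome 7, 105425731 to 105470898), was at 11.0, 18.0, 11.4 and 13.6 CPM (CTR) and 9.40, 8.69, 10.4 and 9.78 CPM (SS). All 4 SS libraries lay below all CTR libraries and close to each other, and CTR-2 was the highest. Group means ± SD (n = 4) were 13.5 ± 3.20 CPM (CTR) and 9.56 ± 0.698 CPM (SS), or -0.50 in log2 fold change (SE 0.21, unadjusted p = 0.035, adjusted p = 0.75 in edgeR's test). Without CTR-2 it was -0.33, at an unadjusted p of 0.11. Cckar, which binds the sulfated peptide selectively, overlapped between groups, with a log2 fold change of -0.069 and an interval of -1.16 to 1.02.

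Nmur2, a receptor of neuromedins U and S, was counted 0, 0, 0 and 7 times (CTR) and 17, 40, 25 and 13 times (SS). Every SS library was higher than every CTR library, at a level below 1 CPM in all 8. Its fitted log2 fold change of 3.60 (SE 1.38) rests on CTR-5 as the only CTR library with a count, and without CTR-5 none is left to compare with. Nmur2 passed the filter through SS alone, so no p is given. Grpr, the gastrin-releasing peptide receptor on the X chromosome, was counted 0, 0, 13 and 39 times (CTR) and 65, 62, 38 and 79 times (SS). Its groups did not overlap in CPM, and the CTR libraries at 0 were those with the most low genes at 0. Highest in each group were the libraries with Xist, CTR-5 at 0.993 CPM and SS-5 at 3.04 CPM. The log2 fold change of Grpr was 2.19 (SE 1.25, unadjusted p = 0.11 in edgeR's test), and 1.22 without CTR-1 and CTR-2. Nmur2 stood at 2.77 without them. The part of the missing low genes in these differences was not tested further.

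The orexin receptors, whose ligand comes from the lateral hypothalamus, overlapped between groups. Hcrtr1 was at 9.71, 3.39, 6.95 and 10.01 CPM (CTR) and 12.6, 12.2, 12.99 and 8.74 CPM (SS), so that SS-5 lay within the CTR range and the other SS libraries above it. On the log2 scale the fold change of Hcrtr1 was 0.63 (interval -0.061 to 1.32) and that of Hcrtr2 -0.12 (interval -0.60 to 0.37). Of the receptors of thyrotropin-releasing hormone, Trhr had a log2 fold change of -0.085 (interval -0.70 to 0.52). Trhr2 was at 1.19, 2.34, 4.84 and 2.55 CPM (CTR) and 1.67, 0.975, 1.17 and 0.539 CPM (SS), overlapping in CTR-1, with a log2 fold change of -1.32 (interval -2.72 to 0.077), which was -0.90 without CTR-3. The oxytocin receptor Oxtr, the vasopressin receptor Avpr1a, the ghrelin receptor Ghsr and the neuromedin B receptor Nmbr also overlapped, with log2 fold changes of -0.090, 0.25, -0.47 and 0.37. Their intervals, in the same order, were -0.55 to 0.37, -0.51 to 1.01, -1.33 to 0.38 and -1.07 to 1.80.

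Npy2r was the lowest in SS among the Gi-coupled receptors by fold change. It is known as a presynaptic receptor of neuropeptide Y (chromosome 3, 82538383 to 82548084). Its level was 4.81, 8.48, 7.30 and 10.3 CPM (CTR) and 4.35, 2.95, 4.56 and 4.43 CPM (SS). The SS libraries all lay below the CTR libraries, narrowly so for CTR-1. Group means ± SD (n = 4) were 7.73 ± 2.32 CPM (CTR) and 4.07 ± 0.755 CPM (SS), or -0.93 in log2 fold change (SE 0.32, interval -1.62 to -0.24, unadjusted p = 0.013, adjusted p = 0.74 in edgeR's test). Without CTR-5 and SS-5 the log2 fold change was -0.80, at an unadjusted p of 0.078 in edgeR's test. The CTR libraries had the same order in the 11 markers of cortex and hippocampus excitatory neurons, at a summed level of 547, 1231, 777 and 1918 CPM, while the SS libraries lay between 606 and 637 CPM. The most abundant of these markers was Camk2a, none was at 0 in all libraries, and 0 of the 11 passed the adjusted threshold in edgeR's test, with 3 lower in SS at an unadjusted p under 0.05. Its part in the Npy2r difference was not tested. Npy1r and Npy5r overlapped between groups, with log2 fold changes of 0.18 (interval -0.57 to 0.92) and -0.092 (interval -1.01 to 0.83).

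Galr1, the galanin receptor, was the member with the smallest p. It was counted 16, 31, 19 and 89 times (CTR) and 200, 300, 110 and 93 times (SS), or 0.827, 1.25, 0.821 and 2.27 CPM (CTR) and 4.78, 6.22, 4.14 and 3.58 CPM (SS). CTR-5 was the highest CTR library and SS-5 the lowest SS library, and these are the libraries with Xist. In log2 units the fold change was 1.84 (95% interval 0.78 to 2.91, unadjusted p = 0.0028, adjusted p = 0.51 in edgeR's test), and 2.38 without CTR-5 and SS-5. Over the 8 fits that each left out 1 library it stayed between 1.68 and 2.27. In length-scaled terms it remained a low receptor, at 0.432 CPM per kb in CTR and 1.57 CPM per kb in SS.

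Sstr2, a somatostatin receptor (chromosome 11, 113619342 to 113626028), was at 10.3, 17.3, 13.5 and 12.8 CPM (CTR) and 19.3, 18.6, 21.1 and 15.9 CPM (SS). SS-5 lay below CTR-2, and the other SS libraries lay above all CTR libraries. Group means ± SD (n = 4) were 13.5 ± 2.88 CPM (CTR) and 18.7 ± 2.15 CPM (SS), or 0.47 in log2 fold change (SE 0.19, unadjusted p = 0.030, adjusted p = 0.75 in edgeR's test). With each library left out in turn, the unadjusted p of Sstr2 in edgeR's test was under 0.05 in 2 of 8 fits and at most 0.082. The other somatostatin receptors overlapped between groups. Sstr1 and Sstr4 had log2 fold changes of 0.47 and 0.45, with intervals of -0.22 to 1.16 and -0.61 to 1.51. The value of Sstr1 was 0.24 without CTR-1 and 0.78 without CTR-2 (unadjusted p = 0.021 in edgeR's test). Sstr3 had one of -0.092, with an interval of -0.51 to 0.33.

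Mchr1, the receptor of melanin-concentrating hormone, was at 27.5, 14.3, 14.3 and 14.9 CPM (CTR) and 16.5, 14.5, 21.4 and 17.8 CPM (SS). CTR-1 was far above the other CTR libraries. The log2 fold change was -0.015 (interval -0.54 to 0.51), and 0.28 without CTR-1, which turned its direction.

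Among the Gs-coupled receptors Adcyap1r1, the receptor selective for PACAP, was the most abundant (chromosome 6, 55451978 to 55501451). It was at 191, 275, 269 and 268 CPM (CTR) and at 278, 294, 276 and 305 CPM (SS). All SS libraries lay above all CTR libraries, but 3 CTR libraries lay just below SS-4, and CTR-1 stood far lower. The lack of overlap of Adcyap1r1 did not hold without a filter or at a mean count of at least 50. On the log2 scale the fold change was 0.20 (SE 0.12, interval -0.051 to 0.45, unadjusted p = 0.11 in edgeR's test), and 0.092 without CTR-1. Mc4r, the melanocortin receptor known for its role in energy balance, was at 3.67, 2.06, 2.33 and 1.66 CPM (CTR) and 1.53, 1.18, 0.791 and 1.62 CPM (SS). SS-5 and CTR-5 were nearly equal, and the groups did not overlap. In log2 units the fold change of Mc4r was -0.92 (SE 0.58, interval -2.18 to 0.34, unadjusted p = 0.14 in edgeR's test). Mc3r, Vipr1, Vipr2 and Glp1r overlapped and each had a count of 0 in 1 CTR library.

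Calcrl forms the receptor of calcitonin gene-related peptide (CGRP) with Ramp1 and those of adrenomedullin with Ramp2 or Ramp3. Calcrl was at 4.81, 9.70, 7.13 and 11.0 CPM (CTR) and 8.82, 9.94, 10.3 and 11.7 CPM (SS), with CTR-1 the lowest and an overlap between groups (log2 fold change 0.32, interval -0.27 to 0.91). Ramp1 was at 46.6, 36.2, 36.9 and 31.7 CPM (CTR) and 29.5, 26.8, 29.6 and 40.7 CPM (SS), so that SS-5 alone of the SS libraries lay within the CTR range. The log2 fold change of Ramp1 was -0.26 (interval -0.63 to 0.11), that of Ramp2 -0.35 (interval -0.77 to 0.078) and that of Ramp3 0.0053 (interval -1.35 to 1.36). Ramp2 is uncertain for another reason, since 1103 bases of its exons are also exons of Vps25 on the same strand in GENCODE M21, where Vps25 collected 211 counts and Ramp2 3612 over the 8 libraries. The 10 endothelial cell markers, which mark the vessels where adrenomedullin receptors are known, summed to 272 ± 32.9 CPM (CTR) and 282 ± 19.1 CPM (SS), with Flt1 the most abundant and 0 of 10 past the adjusted threshold in edgeR's test or at an unadjusted p under 0.05.

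Insr, the insulin receptor, was at 34.2, 45.2, 54.3 and 60.9 CPM (CTR) and 52.6, 52.7, 64.9 and 50.9 CPM (SS). The groups overlapped, with a log2 fold change of 0.18 (interval -0.19 to 0.56). Lepr, the leptin receptor, had 1 count in CTR-1 and between 56 and 157 in the other libraries, with a log2 fold change of -0.044 (interval -1.80 to 1.71).

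**Figure D3:**
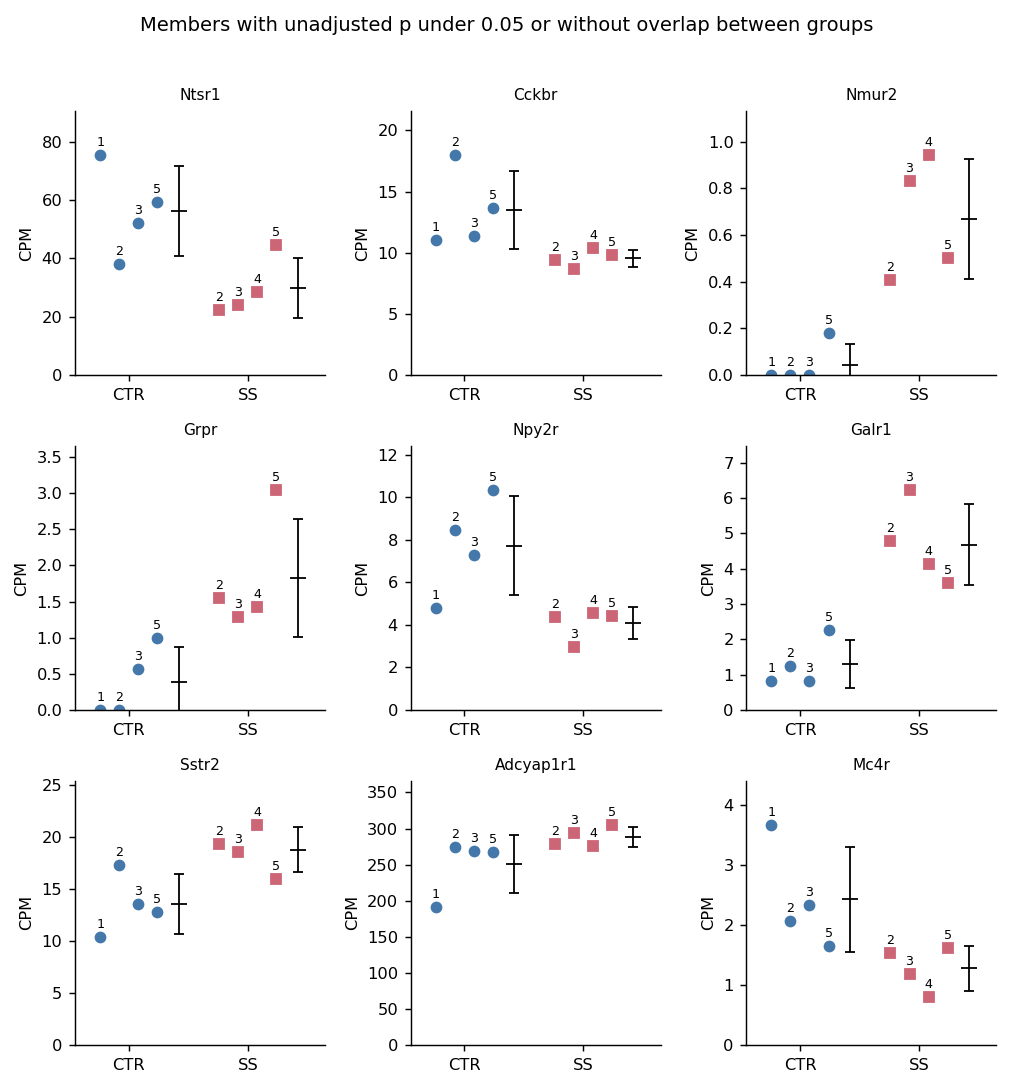
CPM of the 9 members at an unadjusted p under 0.05 in edgeR's test or without overlap between groups, 1 panel per gene, with each library as a point carrying its replicate number and the mean with SD (n = 4) beside each group; bars that would pass below 0 end at the axis. Ntsr1 and Sstr2 overlap through SS-5 and CTR-2, and the other 7 do not overlap.

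Some members were too low to read. Galr2 and Galr3 did not pass edgeR's filter on low counts and were not compared. Galr2 was counted 0, 0, 0 and 7 times (CTR) and 0, 37, 3 and 42 times (SS), and Galr3 0, 0, 24 and 6 times (CTR) and 12, 16, 2 and 0 times (SS). Galr3 also shares 363 exonic bases on the same strand with Gcat, which had 1884 counts. A further 7 members were tested although at least 1 library had under 10 counts, namely Nmur2, Grpr, Lepr, Vipr1, Vipr2, Mc3r and Glp1r. Vipr1, Vipr2 and Glp1r had no count in CTR-1, where their other libraries had 29 to 224, 27 to 101 and 19 to 100 counts, and Mc3r had none in CTR-2 and 45 to 136 elsewhere. The intervals of their log2 fold changes were -2.23 to 2.01 for Vipr1, -2.40 to 1.79 for Vipr2, -1.88 to 2.15 for Mc3r and -1.70 to 2.75 for Glp1r, so that a doubling and a halving both lie inside each of them. The remaining 28 members had at least 14 counts in every library.

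The precursor genes of the ligands were read as a list of 30 genes, of which 16 passed the filter. edgeR's test called none after adjustment, and DESeq2 called 2, Trh and Cck. At an unadjusted p under 0.05 in edgeR's test, Trh and Pmch were higher and Cck and Vip lower in SS. Over all tested genes 2.85% were higher and 3.7% lower. The median log2 fold change of the 16 was 0.090. Trh passed the filter through SS alone and so had to differ, so that its p is not evidence. Adcyap1, the PACAP precursor, was the most abundant, and no count was found for Pyy, Avp, Lep, Ins1 and Ins2 in any library, although the receptors Avpr1a, Lepr and Insr were counted. Pmch, the precursor of melanin-concentrating hormone, was at 0.207, 16.7, 1.90 and 6.65 CPM (CTR) and at 34.3, 32.1, 32.7 and 50.3 CPM (SS). The SS libraries lay above all CTR libraries, which differed widely from each other. On the log2 scale the fold change of Pmch was 2.54 (SE 0.74, unadjusted p = 0.0050, adjusted p = 0.61 in edgeR's test). It was 3.59 without CTR-2 alone and 3.07 without CTR-1 and CTR-2, the latter at an adjusted p of 0.023 in edgeR's test. Lower values were 2.15 without CTR-1 alone and 2.38 without CTR-5 and SS-5. The adjusted p of Pmch was 0.42 with DESeq2. Its receptor Mchr1 had an interval around 0.

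Set beside their receptors, Nts was at 11.3, 26.4, 20.4 and 10.8 CPM (CTR) and 14.4, 11.99, 15.9 and 15.8 CPM (SS), with a log2 fold change of -0.25 (interval -0.86 to 0.36), compared with -0.92 for Ntsr1. Nts overlapped between groups. Npy overlapped as well, with -0.10 (interval -0.82 to 0.61), compared with -0.93 for Npy2r. Cck was at 40.1, 28.0, 29.6 and 88.2 CPM (CTR) and 10.7, 17.6, 10.7 and 21.3 CPM (SS), CTR-5 being by far the highest. Its log2 fold change was -1.63 (SE 0.37, unadjusted p = 0.00086, adjusted p = 0.32 in edgeR's test), and its adjusted p with DESeq2 was 0.0030. Cck was lower in SS as Cckbr was, and neither gene overlapped between groups. Gal was at 2.84, 3.88, 5.79 and 1.55 CPM (CTR) and 2.49, 5.02, 8.55 and 11.9 CPM (SS), overlapping between groups. The log2 fold change of Gal was 0.99 (interval -0.13 to 2.11), 0.61 without SS-5 and 0.36 without CTR-5 and SS-5. Sst and Adcyap1 had log2 fold changes of 0.17 (interval -0.37 to 0.70) and 0.024 (interval -0.26 to 0.31), that of Sst being 0.50 without CTR-1 (unadjusted p = 0.011 in edgeR's test) and 0.55 without CTR-1 and CTR-2. Vip was at 22.7, 43.9, 13.3 and 11.2 CPM (CTR) and 5.60, 3.05, 10.8 and 13.4 CPM (SS), where SS-5 lay above CTR-3 and CTR-5. Its log2 fold change was -1.48 (SE 0.50, unadjusted p = 0.012 in edgeR's test) and -0.94 without CTR-2. For Vip the value was -0.59 without CTR-1 and CTR-2 (unadjusted p = 0.22 in edgeR's test) and -2.06 without CTR-5 and SS-5.

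**Figure D4:**
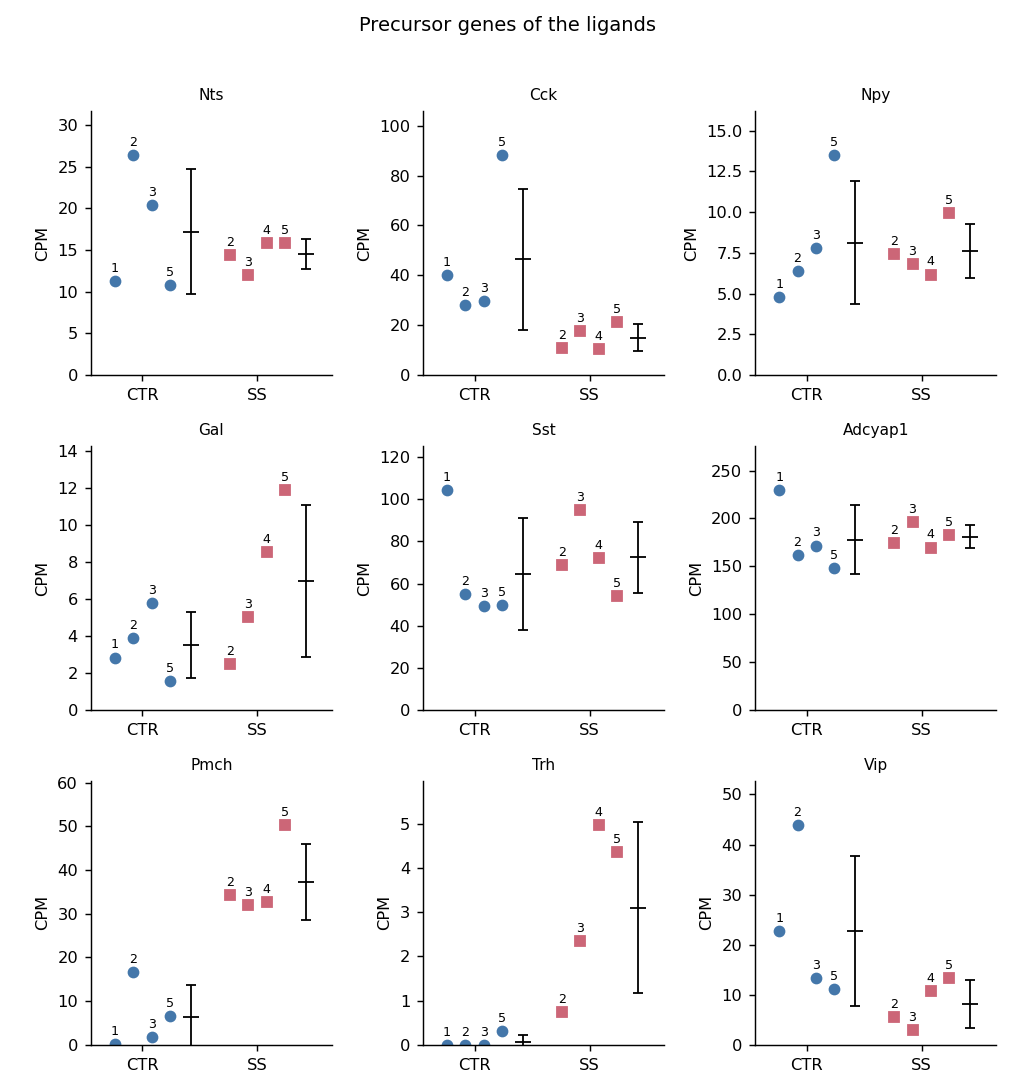
CPM of 9 precursor genes in each library, 1 panel per gene, with replicate numbers at the points and the mean with SD (n = 4) beside each group; bars that would pass below 0 end at the axis. Pmch and Trh lie higher and Cck lower in all SS libraries than in any CTR library, while Nts, Npy, Gal, Sst, Adcyap1 and Vip overlap.

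Other receptors of peptides and hormones, outside the 37, were read as a second list of 47 symbols, of which 46 were in the table and 31 passed the filter. edgeR's test called none after adjustment, and DESeq2 called 1, Calcr. At an unadjusted p under 0.05 in edgeR's test, Calcr and Gpr83 were higher and Thra lower in SS, beside 2.85% and 3.7% of all tested genes. By sign alone 22 of the 31 were higher, and the median log2 fold change was 0.14. Calcr, the calcitonin receptor, which forms amylin receptors with the RAMPs, was at 2.84, 1.21, 1.94 and 2.93 CPM (CTR) and 8.78, 10.7, 8.25 and 4.27 CPM (SS). The groups did not overlap and SS-5 was the lowest SS library, as it was for Galr1. In log2 units the fold change of Calcr was 1.84 (SE 0.40, unadjusted p = 0.00064, adjusted p = 0.26 in edgeR's test). Gpr83, a receptor of the peptide PEN, had a log2 fold change of 0.69 (SE 0.24, unadjusted p = 0.016 in edgeR's test), with overlap. Thra, a thyroid hormone receptor and the most abundant gene of the list, was at 590 to 622 CPM (CTR) and 513 to 555 CPM (SS), a log2 fold change of -0.19 (SE 0.068, unadjusted p = 0.016, adjusted p = 0.75 in edgeR's test). Npffr1 also did not overlap between groups, at a log2 fold change of 0.44 (interval -0.34 to 1.21).

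Markers of the hypothalamus and mammillary region, which borders the VTA and makes several of these peptides, stood at a summed level of 36.6, 67.5, 48.3 and 40.1 CPM (CTR) and 58.2, 52.2, 72.6 and 52.6 CPM (SS). The sums overlapped between groups. Of the 14 genes, 9 were tested, edgeR's test called 0 after adjustment and 1, Otp, was higher at an unadjusted p under 0.05, while 7 of the 9 were higher in SS. The most abundant was Foxb1, and Six6 had no count in any library. Otp was at 0, 0.485, 1.34 and 1.503 CPM (CTR) and 4.64, 5.31, 10.3 and 2.20 CPM (SS), with SS-5 again the lowest SS library. The part of this region's RNA in the higher Galr1, Calcr, Pmch and Trh was not tested. In CTR-5, Ttr, a choroid plexus transcript, was at 234 CPM, compared with 3.67 to 18.7 CPM in the other libraries.

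In 8 further marker lists edgeR's test called 0 genes after adjustment. Genes at an unadjusted p under 0.05 in edgeR's test were Prkcd (lower) and Plekhg1 (higher) of 8 tested for thalamus, Nwd2 (lower) of 5 for interpeduncular nucleus and habenula, Col1a2 (higher) of 9 for mural and leptomeningeal cells and Ttr (lower) of 4 for choroid plexus and ependyma. There was none among 9 astrocyte, 8 oligodendrocyte, 6 GABA neuron and 1 serotonin neuron genes tested. The most abundant genes of these lists were Slc17a6 for thalamus, Tac1 for interpeduncular nucleus and habenula, Rgs5 for mural and leptomeningeal cells, Ttr, Slc1a2, Mbp, Gad2 and Slc22a3. Tmem212, an ependymal gene, had no count in any library.

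**Figure D5:**
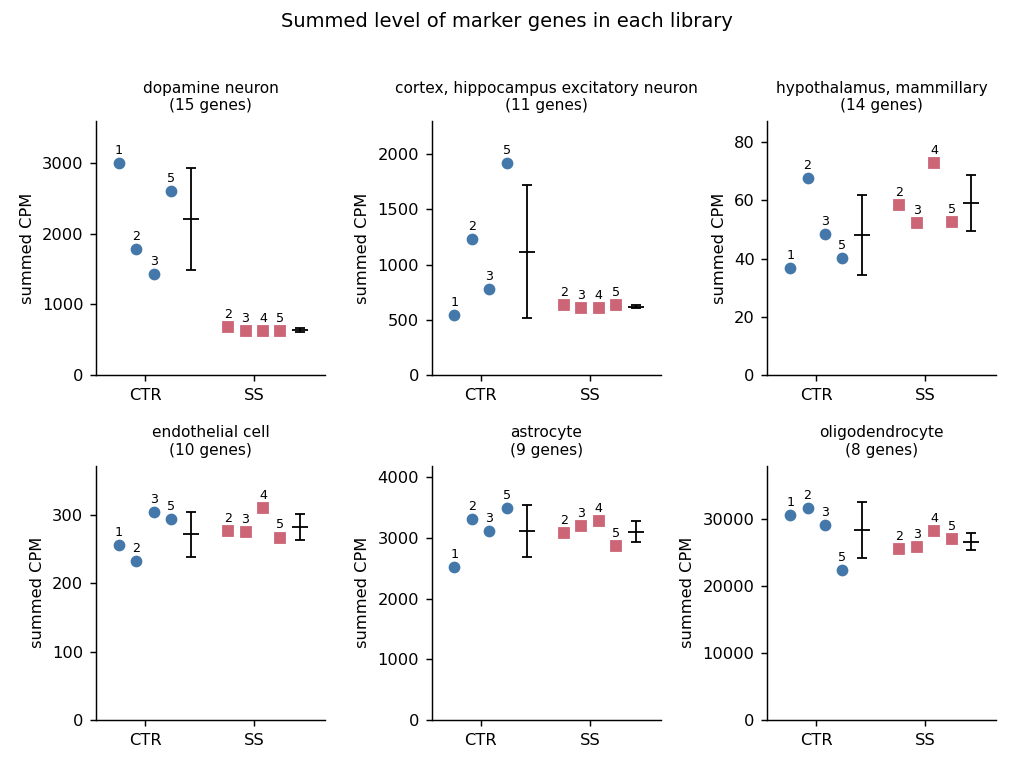
Summed CPM of 6 lists of marker genes in each library, with replicate numbers at the points and the mean with SD (n = 4) beside each group. The dopamine neuron sums lie between 619 and 678 CPM in SS and at 1435 CPM or more in CTR, the cortex and hippocampus sums spread from 547 to 1918 CPM in CTR, and the other 4 lists overlap between groups.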

How the data were processed

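RNA from VTA punches was sequenced as single-end reads of 75 bp. The authors used Cutadapt for trimming, STAR for alignment to mm10 and htseq-count with Ensembl release 102, and deposited unnormalized counts per gene. The strand setting is not given in the sources used here. Counts were analysed in R 4.3.3 with edgeR 4.0.16: filterByExpr (minimum count 10, minimum total 15), TMM, glmQLFit and glmQLFTest at their defaults, a design with group alone, and p adjusted over 16538 genes (Benjamini-Hochberg) with 0.05 as threshold. Intervals are 95% intervals of edgeR's fit. DESeq2 1.42.0, limma 3.58.1 (voom), other normalizations and filters, and libraries left out were alternatives. Single genes were also compared by an exact permutation test of log2 CPM (prior count 2). Exon lengths and positions came from GENCODE M21 (GRCm38, the build of mm10), promoters from RefSeq GRCm38.p6. Described in full are members at an unadjusted p under 0.05 or without overlap between groups, the 5 highest per kb, their family relatives and their ligands. Members and lists were chosen with earlier results of these data known. Some values, such as those of Hcrtr1, Trhr2, Calcrl, Insr, Otp and Ttr in each library, were chosen after they were seen.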

Additional observations from a re-analysis of the deposited data

Results flagged for a closer look

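Dixon's ratio was used to find single libraries far from their group: the distance of an extreme library from the next 1, as a share of the span of all 4. At the level of about 1 in 20 groups by chance, 11 of 94 groups (tested members, named ligand genes and named receptors) passed its critical value, where chance gives 4.7. That number assumes normally distributed values without ties. CPM of low genes need not meet this, and all groups come from the same 8 libraries, so the excess over 4.7 is not read as a result. For Nmur2 and Trh the ratio is fixed at 1 by 3 CTR libraries tied at 0, so these 2 of the 11 do not count beside 4.7.

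CTR-1 stood apart in 3 of them: it was high for Mchr1 (0.953, at 27.5 CPM compared with 14.9 in the next library) and for Sst (0.891, at 104 compared with 55.1 CPM), and low for Adcyap1r1 (0.918, at 191 compared with 268 CPM). CTR-5 was the only CTR library with a count of Nmur2 and of Trh, which gives a value of 1 for each. SS-5 was high for Grpr (0.847, at 3.04 compared with 1.55 CPM), for Avpr1a (0.847, at 11.98 compared with 6.40 CPM) and for Pmch (0.877, at 50.3 compared with 34.3 CPM). SS-4 was high for Vipr1 (0.860, at 5.95 compared with 1.79 CPM) and for Insr (0.872, at 64.9 compared with 52.7 CPM). SS-3 was low for Npy2r (0.873, at 2.95 compared with 4.35 CPM). The reason for these values was not tested.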

How the results depend on the processing

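Of the fold changes of the 35 tested members, 19 kept their sign in every alternative and 16 changed it in at least 1. Ntsr1, Npy2r, Cckbr, Galr1, Sstr2 and the other members without overlap were among the 19. All of these but Ntsr1 and Sstr2 had groups without overlap in the main analysis. For such members, leaving out libraries can hardly turn the sign, so their kept sign in those fits is not evidence. Nmur2 also passed the filter through SS alone, so its kept sign was fixed beforehand. Of 592 values 58 changed sign and 1 passed the threshold. The cause was not tested.

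The count of all genes called, 14 in the main analysis, was 81 with DESeq2 (21 higher), 22 without a filter, 22 at a mean count of at least 50, 9 without CTR-5 and SS-5, and from 6 to 19 with each library left out. DESeq2 called 1 member, 2 ligand genes (1 higher) and 1 other receptor; without CTR-1 and CTR-2, 1 ligand gene was called. Members at an unadjusted p under 0.05 numbered from 3 to 7 with each library left out. Members without overlap, 7 (4 higher) in the main analysis, numbered 6 without a filter (3 higher), 6 with upper-quartile normalization (4 higher), 4 at a mean count of at least 50 (1 higher), 13 without CTR-5 and SS-5 (7 higher), 11 without CTR-1 and CTR-2 (5 higher) and from 6 to 11 with each library left out, where smaller groups overlap less by construction. For neither count of members was the share of all tested genes taken in these alternatives. The counts are therefore not read as a result about the members.

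Replicate numbers 2, 3 and 5 occur in both groups, and the deviations of same-numbered libraries correlated across genes at -0.0062, -0.0077 and 0.060. Pairs of unlike number ran from -0.094 to 0.045. The 0.060 of CTR-5 with SS-5, the libraries with Xist, was the highest value of any pair. All these values were small, and the numbers were not taken to pair the mice. With the replicate number as a block, 9 genes and 0 members were called, and log2 fold changes turned to 0.16 (Mchr1), 0.095 (Ntsr2), 0.67 (Cckar), -0.083 (Npy1r), 0.25 (Npy5r), 0.021 (Oxtr) and -0.029 (Insr).

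With limma voom they turned to 0.044 (Mchr1), 0.0055 (Ntsr2), 0.33 (Cckar), 0.41 (Vipr1), 0.54 (Vipr2), -0.050 (Ramp3) and 0.62 (Lepr), and at a mean count of at least 50 to -0.010 (Ramp3). Without CTR-5 and SS-5 they turned to 0.74 (Vipr1), -0.24 (Avpr1a), -0.47 (Ramp3), 0.22 (Lepr), 0.10 (Npy) and -0.060 (Adcyap1). Without CTR-1 and CTR-2 they turned to 0.27 (Mchr1), 0.070 (Ntsr2), 0.76 (Cckar), -0.14 (Npy1r), 0.088 (Oxtr) and -0.061 (Insr).

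With each library left out, the lowest and highest values were -0.29 and 0.093 for Trhr, -0.12 and 0.28 for Mchr1, -0.23 and 0.023 for Hcrtr2, -0.056 and 0.087 for Ntsr2, -0.31 and 0.41 for Cckar, -0.068 and 0.41 for Npy1r, -0.21 and 0.12 for Npy5r, -0.22 and 0.080 for Sstr3, -0.87 and 0.49 for Vipr1, -0.71 and 0.17 for Vipr2, -0.28 and 0.93 for Mc3r, -0.24 and 0.022 for Oxtr, -0.093 and 0.43 for Avpr1a, -0.35 and 0.51 for Ramp3, -0.45 and 0.45 for Lepr, -0.42 and 0.035 for Nts, -0.29 and 0.26 for Npy, and -0.053 and 0.17 for Adcyap1.

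Members that kept their sign but moved over 1.5-fold with 1 library left out, and the ligand gene Sst, had these lowest and highest values: Hcrtr1 0.39 (without CTR-2) and 0.80 (CTR-5), Cckbr -0.58 (without CTR-1) and -0.33 (CTR-2), Sstr1 0.24 (without CTR-1) and 0.78 (CTR-2), Sstr4 0.26 (without CTR-3) and 0.67 (SS-2), Adcyap1r1 0.092 (without CTR-1) and 0.25 (CTR-2), Nmbr 0.14 (without SS-2) and 0.93 (CTR-5), Calcrl 0.13 (without CTR-1) and 0.50 (CTR-5), Ramp1 -0.40 (without SS-5) and -0.14 (CTR-1), Ramp2 -0.44 (without CTR-5) and -0.18 (CTR-1), Ghsr -0.68 (without CTR-2) and -0.23 (CTR-1), Glp1r 0.12 (without CTR-1) and 0.85 (CTR-2), Insr 0.047 (without CTR-1) and 0.31 (CTR-5), and Sst 0.011 (without SS-3) and 0.50 (CTR-1). Nmur2, whose sign was fixed by the filter, ran from 3.24 to 7.34 in the same fits.

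Other settings moved further members over 1.5-fold without a change of sign. With the replicate block these were Trhr -0.027, Sstr1 0.27, Sstr2 0.31, Sstr3 -0.17, Vipr1 -1.20, Vipr2 -0.51, Adcyap1r1 0.11, Mc3r 1.58, Mc4r -0.48, Avpr1a 0.13, Calcrl 0.15, Ramp1 -0.13, Ramp2 -0.22, Ramp3 0.33, Ghsr -0.091, Glp1r 0.061 and Lepr -0.52, the unadjusted p of Sstr2 being 0.14 in edgeR's test. Without CTR-5 and SS-5 they were Trhr -0.047, Mchr1 -0.097, Hcrtr2 -0.074, Ntsr2 -0.088, Cckar -0.45, Npy1r 0.41, Nmbr 0.98, Ramp1 -0.48, Ghsr -0.14, Glp1r 0.94, Insr 0.35 and, with no CTR count left, Nmur2 7.48. Without CTR-1 and CTR-2 they were Trhr -0.41, Hcrtr2 -0.33, Sstr3 -0.051, Vipr1 -0.62, Adcyap1r1 0.10, Grpr 1.22, Nmbr 0.037, Mc3r 0.35, Calcrl 0.16, Ramp1 -0.12, Ramp2 -0.20, Ramp3 0.23, Glp1r 0.28 and Lepr -0.72. With limma voom they were Npy5r -0.058, Grpr 3.33, Mc3r 1.59 and Glp1r 1.24. Without a filter they were Mchr1 -0.0051, Ntsr2 -0.0035 and Ramp3 0.016, and at a mean count of at least 50 Mchr1 -0.030 and Ntsr2 -0.025.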
